A study of Homo sapiens with 6 samples.

Results

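AFP, GPC3, LIN28B, IGF2BP1, IGF2BP2, IGF2BP3, SALL4, PEG10, IGF2 and H19 are grouped here as oncofetal genes of the liver. Many of them, though not all, are active in the fetal liver, largely silent in the adult organ and often active again in liver cancer. Rows of the deposited expression table were taken where the gene name equals 1 of these 10 names. This gave 11 of the 58735 rows, because 2 rows are named IGF2. Of the 11, 9 passed the filter on low values and were tested, with 14847 rows tested in all. H19 and the second IGF2 row were too low and are described by their reads.

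The tested group was Huh7 cells carrying a short hairpin RNA against TRIM15 (shTRIM15, 3 libraries), and it was set against Huh7 cells carrying a control short hairpin RNA (shcontrol, 3 libraries). Huh7 is an established human liver cancer line, and both groups were kept in RPMI-1640 with added fetal bovine serum. TRIM15 belongs to the tripartite motif proteins, many of which attach ubiquitin to other proteins, and by its title the series concerns TRIM15, the AKT and FOXO1 axis, LASP1 and the response of liver cancer cells to kinase inhibitors. The labels do not say how many hairpins were used or whether the libraries of a group came from separate cultures, so p-values measure the spread between these libraries, which may be technical.

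AFP is the main plasma protein of the fetal liver, and GPC3 is a proteoglycan anchored on the cell surface. LIN28B is an RNA-binding protein that blocks the maturation of let-7 microRNAs. The let-7 microRNAs in turn repress many growth genes, LIN28B itself and the IGF2BP genes among them, so that LIN28B and let-7 oppose each other. The IGF2BP proteins bind mRNAs and keep them stable, SALL4 is a zinc finger transcription factor of embryonic cells, PEG10 is an imprinted gene derived from a retrotransposon, IGF2 is a fetal growth factor, and H19 is a long noncoding RNA imprinted opposite to IGF2.

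Depth was 17332508 to 19556855 reads in the shTRIM15 libraries and 17715210 to 18217903 reads in the shcontrol libraries. Levels are in FPKM, which divide the fragments of a gene by its length and by the size of the library. TRIM15 had 3.23, 2.11 and 2.51 FPKM in the shTRIM15 libraries (153, 105 and 111 reads) and 5.17, 5.09 and 4.88 FPKM in the shcontrol libraries (235, 226 and 223 reads). Its log2 fold change was -0.75 (SE 0.106, limma adjusted p = 0.00416), so the libraries go with their labels. All 12 hepatocyte markers passed the filter, and their summed level was 2280 to 2300 FPKM in shTRIM15 and 2280 to 2290 FPKM in shcontrol. Of the 12, 2 were lower by limma, the fibrinogen gene FGB (233 ± 6.01 FPKM in shTRIM15 and 271 ± 7.37 FPKM in shcontrol, SD, n = 3 each, log2 fold change -0.22) and the transferrin gene TF (-0.09). The TF call was lost with any library but shcontrol replicate 1 left out (adjusted p up to 0.0869). Of 8 endothelial markers 0 passed the filter and 7 of 10 immune markers were below it, with CDH5 and MS4A1 at 0 reads. Of 10 fibroblast markers 5 were below it, with THY1 at 0 reads and DCN at 2 reads over the shTRIM15 libraries and 3 over the shcontrol libraries. The summed fibroblast list, mostly LUM, was 58.0 to 60.6 FPKM in shTRIM15 and 65.0 to 68.6 FPKM in shcontrol. The summed immune list was 17.4 to 19.2 FPKM in shTRIM15 and 17.5 to 18.8 FPKM in shcontrol, and 0 of its 3 tested markers were called. Of 6 cholangiocyte markers 4 were tested and 1, SOX9, was higher (log2 fold change 0.22). That list summed to 273 to 276 FPKM in shTRIM15 and 274 to 276 FPKM in shcontrol.

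LIN28B and IGF2BP1 were lower in the knockdown, and the other 7 tested oncofetal genes did not pass the threshold. Each fold change is shTRIM15 over shcontrol and was taken on log2(FPKM + 1), which understates changes of genes near 1 FPKM. The threshold was a limma adjusted p under 0.05, adjusted over all 14847 rows tested. Of 9 members tested, 2 were lower and 0 higher by limma, where 10.1% of all tested genes were lower and 8.93% higher (19% in either direction). At an unadjusted p under 0.05, 3 were lower and 2 higher by limma, beside 16.3% lower and 16.4% higher of all genes. With voom on whole reads and adjusted p, 2 were lower and 2 higher, beside 12.3% lower and 15.9% higher of all genes. The 9 had a median log2 fold change of -0.05, and all genes tested one of 0.0014. The groups did not overlap in 6 of the 9, beside 37.8% of all genes tested.

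**Figure D1:**
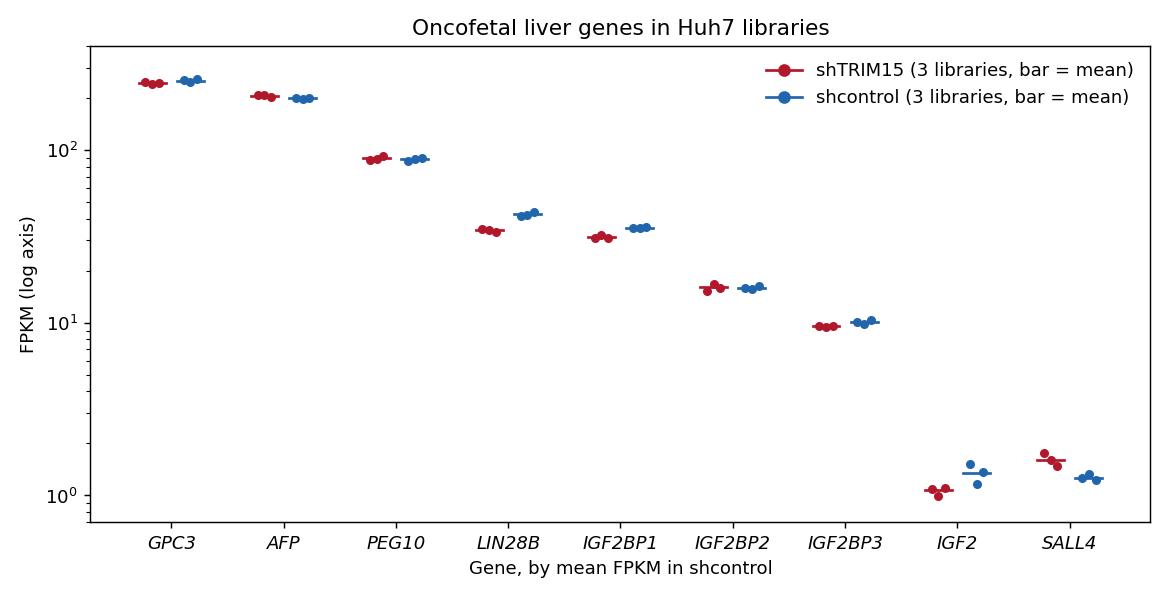
FPKM on a log axis for the 9 tested oncofetal genes, with 1 point per library and a bar at the mean of each group. LIN28B and IGF2BP1 lie lower in all 3 shTRIM15 libraries than in any shcontrol library, while GPC3, PEG10 and IGF2BP2 overlap between groups.

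The 5 most abundant members lay above 30 FPKM in shcontrol and SALL4 and IGF2 near 1. GPC3 averaged 244 ± 3.49 FPKM in shTRIM15 and 252 ± 4.61 FPKM in shcontrol (SD, n = 3 each), which was rank 118 by mean level. AFP followed at rank 161 with 206 ± 3.02 FPKM in shTRIM15 and 199 ± 1.78 FPKM in shcontrol. PEG10 averaged 89.6 ± 2.08 FPKM in shTRIM15 and 88.4 ± 2.14 FPKM in shcontrol. LIN28B, IGF2BP1, IGF2BP2 and IGF2BP3 came next in that order, and the ranges of neighbours did not meet in either group. The ranges of SALL4 and IGF2 met in shcontrol but not in shTRIM15.

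LIN28B (chromosome 6, 104936616 to 105083332 on GRCh38, plus strand) showed the clearest difference of the set. It had 35.0, 34.4 and 33.5 FPKM in the shTRIM15 libraries (3959, 4082 and 3531 reads), and 41.6, 42.3 and 44.0 FPKM in the shcontrol libraries (4519, 4486 and 4796 reads). Every shTRIM15 value lies below every shcontrol value. The mean fell by 19.6%, with a log2 fold change of -0.31 (SE 0.029, limma adjusted p = 0.001). The antisense gene LIN28B-AS1, which overlaps 4832 bases of the LIN28B locus, had 23 reads over the shTRIM15 libraries and 29 over the shcontrol libraries. The paralog LIN28A was below the filter, with 42 reads over the shTRIM15 libraries and 48 over the shcontrol libraries.

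TOPBP1 (Pearson r = 0.9993) and MSMO1 (0.999) were among the tested protein-coding genes whose log2 values followed LIN28B most closely over the 6 libraries. TOPBP1 encodes a DNA damage checkpoint protein and had a log2 fold change of -0.21. MSMO1 encodes a sterol oxidase and had a log2 fold change of -0.59. These correlations are a description of 6 libraries that fall into 2 groups, and 772 of the 11651 genes compared had an r of at least 0.95.

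IGF2BP1 (chromosome 17, 48997412 to 49055650, plus strand) was the other member that passed the threshold. It had 30.8, 32.3 and 31.0 FPKM in the shTRIM15 libraries (5288, 5815 and 4955 reads), and 35.4, 35.3 and 35.6 FPKM in the shcontrol libraries (5828, 5675 and 5882 reads). The groups do not overlap, and the mean fell by 11.5% (log2 fold change -0.17, SE 0.0254, limma adjusted p = 0.00507). LIN28B and IGF2BP1 stayed past the threshold in all 15 alternative settings tried, with adjusted p of at most 0.0123 for LIN28B and 0.0261 for IGF2BP1.

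Its paralogs IGF2BP2 and IGF2BP3 did not pass. IGF2BP2 (chromosome 3, 185643739 to 185825056, minus strand) had 15.2, 16.7 and 15.9 FPKM in shTRIM15 libraries, and 15.9, 15.7 and 16.3 FPKM in shcontrol libraries. These values overlap, and the log2 fold change was -0.00014 (SE 0.0382, limma adjusted p = 0.999). IGF2BP3 (chromosome 7, 23310209 to 23470467, minus strand) had 9.55, 9.42 and 9.61 FPKM in shTRIM15 libraries, and 10.1, 9.79 and 10.3 FPKM in shcontrol libraries. The groups do not overlap, but the log2 fold change of -0.07 (SE 0.0321) gave an adjusted p = 0.171. On the opposite strand 1521 bases of the IGF2BP3 locus are shared with MALSU1, a mitochondrial ribosome assembly factor at 11.2 ± 0.361 FPKM in shTRIM15 and 14.0 ± 0.863 FPKM in shcontrol (SD, n = 3 each). MALSU1 was itself lower (log2 fold change -0.31, adjusted p = 0.00619). The library kit marks strand, but no source used here says whether the counting did, so the IGF2BP3 values are uncertain to that extent.

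**Figure D2:**
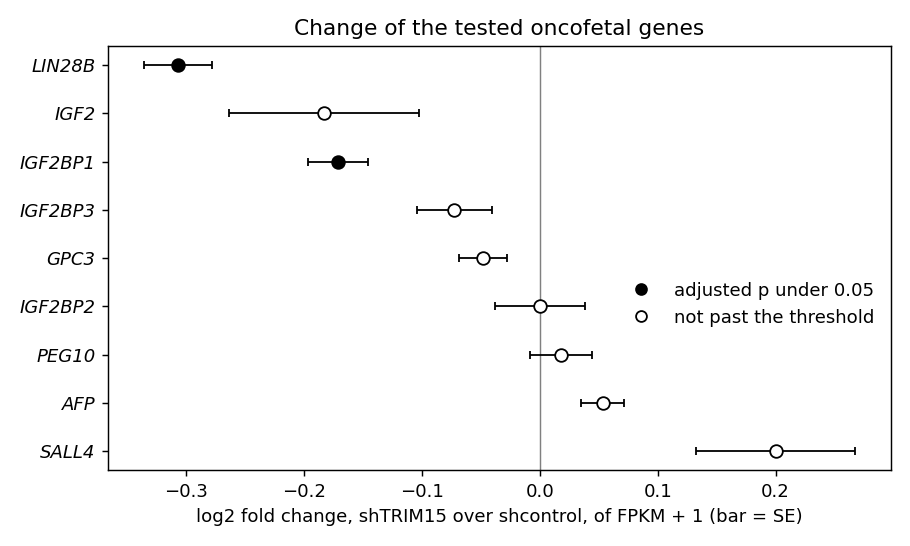
Log2 fold change of FPKM + 1, shTRIM15 over shcontrol, with its standard error for the 9 tested oncofetal genes. The filled points, LIN28B at -0.31 and IGF2BP1 at -0.17, passed the adjusted p threshold of 0.05, while IGF2 at -0.18 and SALL4 at 0.20 have wider errors and did not.

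Within each library the make-up of the IGF2BP family was also compared. IGF2BP1 made up 55.4, 55.3 and 54.8% of the summed FPKM of the 3 paralogs in the shTRIM15 libraries, and 57.7, 58.1 and 57.2% in the shcontrol libraries. IGF2BP2 made up 28.1% ± 0.599 in shTRIM15 and 26.0% ± 0.215 in shcontrol (SD, n = 3 each). The summed level of the 3 was 56.8 FPKM in shTRIM15 and 61.4 FPKM in shcontrol. IGF2BP1 thus remained the most abundant paralog in every library.

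Whether members differed in their response was tested on 7 FPKM ratios within libraries, with a two-sided exact permutation test over libraries. With 3 against 3 libraries this exact test cannot go below p = 0.1, which is 0.14 after Benjamini-Hochberg adjustment over the 7. The ratio of LIN28B to IGF2BP3 was 3.66, 3.65 and 3.49 in shTRIM15 libraries, and 4.13, 4.33 and 4.26 in shcontrol libraries (exact p = 0.1, difference -0.24 on the log2 scale). The ratio of LIN28B to IGF2BP1 averaged 1.09 ± 0.0371 in shTRIM15 and 1.2 ± 0.0306 in shcontrol (SD, n = 3 each; exact p = 0.1). The ratio of IGF2BP2 to IGF2BP1 averaged 0.509 ± 0.0121 in shTRIM15 and 0.45 ± 0.00717 in shcontrol (exact p = 0.1). That of IGF2BP3 to IGF2BP1 averaged 0.304 ± 0.0107 in shTRIM15 and 0.284 ± 0.00672 in shcontrol (exact p = 0.1). In these 4 ratios, and in that of GPC3 to AFP given below, the groups did not overlap. Each of the 4 holds LIN28B or IGF2BP1, whose own groups did not overlap. No share over other pairs of genes was taken, so a difference in response is not shown. The ratio of IGF2BP2 to IGF2BP3 overlapped between groups (exact p = 0.2).

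**Figure D3:**
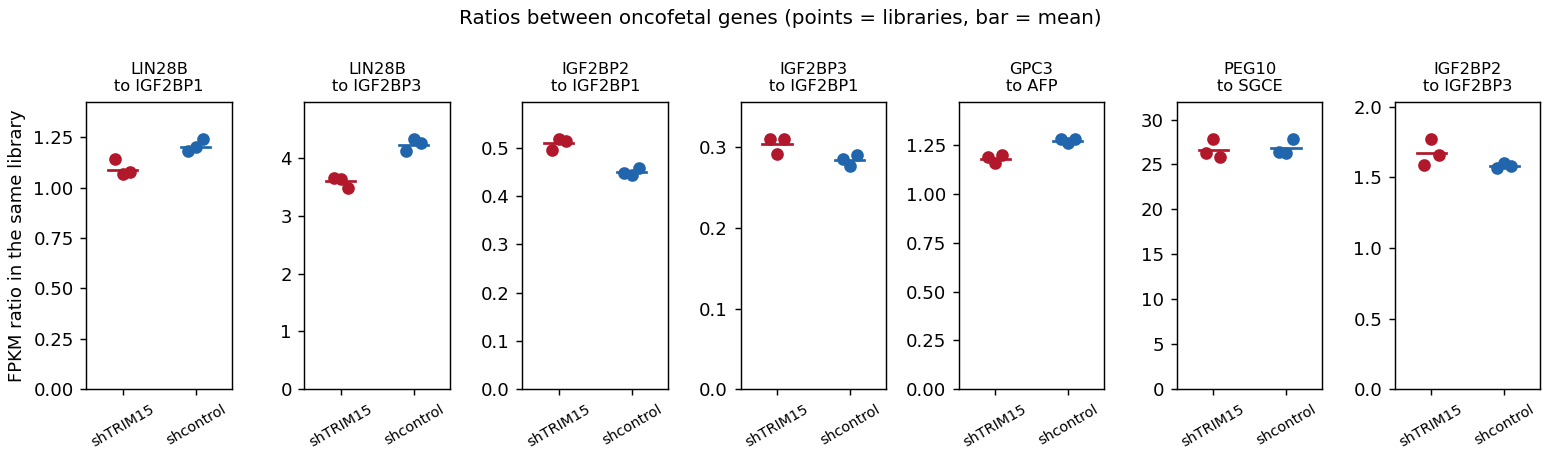
FPKM ratio of 2 genes within the same library, with 1 point per library, a bar at the group mean and a vertical axis that starts at 0. The ratios of LIN28B to IGF2BP1 and to IGF2BP3 lie lower in all 3 shTRIM15 libraries than in any shcontrol library, while PEG10 to SGCE and IGF2BP2 to IGF2BP3 overlap.

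The secreted marker AFP and the surface marker GPC3 did not pass the threshold. AFP (chromosome 4, 73431138 to 73456174, plus strand) had 208, 208 and 203 FPKM in shTRIM15 libraries, and 199, 197 and 200 FPKM in shcontrol libraries. The shTRIM15 values are all higher, by a log2 fold change of 0.05 (SE 0.0181), which did not pass (limma adjusted p = 0.0869). AFP passed under quantile scaling (0.08, adjusted p = 0.0121) and with voom on whole reads (0.08, adjusted p = 0.00219). Over all genes the median log2 fold change was 0.0044 under quantile scaling and 0.023 with voom. GPC3 (chromosome X, 133535745 to 133985895, minus strand) had 248, 241 and 243 FPKM in shTRIM15 libraries, and 254, 247 and 256 FPKM in shcontrol libraries. The groups overlap (log2 fold change -0.05, SE 0.0204, adjusted p = 0.151), and under quantile scaling the value was -0.00503. The ratio of GPC3 to AFP averaged 1.18 ± 0.0194 in shTRIM15 and 1.27 ± 0.0123 in shcontrol (SD, n = 3 each; exact permutation p = 0.1).

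SALL4 (chromosome 20, 51782331 to 51802520, minus strand) was low. It had 1.75, 1.6 and 1.49 FPKM in shTRIM15 libraries (191, 182 and 151 reads), and 1.27, 1.33 and 1.23 FPKM in shcontrol libraries (132, 135 and 129 reads). All shTRIM15 values are above the shcontrol values, but the log2 fold change of 0.20 (SE 0.0674) did not pass (limma adjusted p = 0.0854). It passed without a variance trend (adjusted p = 0.0434) and with voom on whole reads (log2 fold change 0.36, adjusted p = 0.0211).

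Among the imprinted members, PEG10 (chromosome 7, 94656325 to 94669695, plus strand) had 87.7, 89.2 and 91.8 FPKM in shTRIM15 libraries, and 86.1, 88.9 and 90.3 FPKM in shcontrol libraries. The groups overlap (log2 fold change 0.02, SE 0.0265, limma adjusted p = 0.695). Its neighbour SGCE, which starts from the same promoter region in the other direction and overlaps it by 248 bases, averaged 3.37 ± 0.173 FPKM in shTRIM15 and 3.3 ± 0.0711 FPKM in shcontrol (SD, n = 3 each). The ratio of PEG10 to SGCE was 26.6 ± 1.03 in shTRIM15 and 26.8 ± 0.844 in shcontrol (SD, n = 3 each; exact permutation p = 0.5).

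IGF2 (chromosome 11, 2129112 to 2149603, minus strand) had 1.09, 0.993 and 1.11 FPKM in shTRIM15 libraries (144, 137 and 136 reads), and 1.52, 1.17 and 1.36 FPKM in shcontrol libraries (192, 144 and 172 reads). The groups do not overlap, yet the spread within shcontrol is wide and the log2 fold change of -0.18 (SE 0.0809) did not pass (limma adjusted p = 0.169). The second IGF2 row (ENSG00000284779) and the read-through gene INS-IGF2, which both overlap IGF2 on the same strand, had 0 reads in every library. For the second row a count of 0 allows up to 3 reads per library, or 0.0259 to 0.0292 FPKM. No source used here says how reads of overlapping genes were assigned, so the IGF2 level is uncertain. H19 (chromosome 11, 1995176 to 2001470, minus strand) had 1 read over the shTRIM15 libraries and 1 over the shcontrol libraries, so a change of H19 was not detectable at this depth.

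The let-7 microRNAs recognise mRNAs mainly through their seed, bases 2 to 8 counted from the 5′ end. RefSeq's table (GRCh38.p14) holds 9 mature names with the same seed, let-7a, b, c, d, e, f, g and i, and miR-98. A pair is shown with the seed in capitals, to set beside the sites in the members.
hsa-let-7a-5p: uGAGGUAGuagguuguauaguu
hsa-miR-98-5p: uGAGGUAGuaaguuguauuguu

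Matches to this seed were searched on the mRNA strand of annotated 3′ UTRs (GENCODE 29, the protein-coding transcript with the longest 3′ UTR per gene). A match was CTACCTC, which pairs with the whole seed, or TACCTCA, which pairs with bases 2 to 7 and is followed by A. The 8-base form CTACCTCA holds both words and was counted once. Such a match is a description of the sequence and not a measured site. Of the 9 member names with a 3′ UTR, 6 held a match and 5 an 8-base match, beside 18.0% and 4.42% of the 11524 tested genes with a 3′ UTR. The members include LIN28B and the IGF2BP genes, named above as repressed by let-7. A high share was therefore built into the choice of members. Matches were more frequent in long 3′ UTRs, and 39.1% of the genes in the longest of 4 length classes of near equal size held one, a class that takes in 4 of these 9 names. The share with an 8-base match was not split by length. LIN28B held 5 matches in 4549 bases and IGF2BP1 held 5 in 6206 bases. Over all tested genes with a 3′ UTR, 10 had 5 or more, which is 0.0868%. In the longest class the share was 0.312%. IGF2BP2 and PEG10 held 2 each and IGF2BP3 and SALL4 held 1 each, while AFP, GPC3 and IGF2 held 0. One of the 2 PEG10 matches lies in the coding sequence of another annotated transcript.

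The 8-base matches of the members are printed 5′ to 3′ on the mRNA strand, GRCh38, with the match in capitals.
LIN28B, chr6:105078817-105078840, plus strand: gttgcaaagtCTACCTCAtgcaag
LIN28B, chr6:105081426-105081449, plus strand: cagcaaaaggCTACCTCAtagttg
IGF2BP1, chr17:49051066-49051089, plus strand: gcgaagtaaaCTACCTCAaggtat
IGF2BP1, chr17:49053703-49053726, plus strand: gtgctagtaaCTACCTCAcagagc
IGF2BP1, chr17:49054357-49054380, plus strand: aatggattaaCTACCTCAatcctt
IGF2BP2, chr3:185644214-185644237, minus strand: acagaagaagCTACCTCAggtgtt
IGF2BP3, chr7:23311789-23311812, minus strand: ttttactcaaCTACCTCAggtatt
SALL4, chr20:51782917-51782940, minus strand: tttaatttatCTACCTCAtttatt

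Mature let-7 was not measured, since the libraries were enriched for mRNA. Of the let-7 precursor rows, MIRLET7D had 12 reads over the shTRIM15 libraries and 19 over the shcontrol libraries. MIR98 had 9 and MIRLET7F1 had 7 over the shTRIM15 libraries, against 5 for MIR98 and 4 for MIRLET7F1 over the shcontrol libraries. Of the 12 rows, 8 had 0 reads in every library. Genes with a let-7 match were lower in 14.9% of 2076 cases and higher in 7.95%, and genes without one were lower in 11.4% of 9448 cases and higher in 11.4%. Genes with a match had longer 3′ UTRs, with a median of 3003 bases beside 1135 bases. Within the longest class, to which LIN28B, IGF2BP1, PEG10 and IGF2 belong, 18.6% of genes with a match and 17.7% of those without one were lower. In the next longest class, with IGF2BP2, IGF2BP3 and SALL4, the shares were 10.7% with and 13.6% without.

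The share of lower genes was greater where 3′ UTRs were longer, at 6.87, 10.1, 13.1 and 18.0% in the 4 length classes, shortest first. All 15864 words of 7 bases present in at least 100 of these 3′ UTRs were therefore ranked. The rank was by the difference in log2 fold change between genes with and without the word, divided by its standard error. This favours frequent words. The fit also held the length and the GC content of the 3′ UTR. The words most tied to lower values were ATGAATA and TGAATAA, which overlap each other, while CTACCTC ranked 4853 and TACCTCA ranked 3685. ATGAATA was present in 17.2% of the 3′ UTRs and TGAATAA in 21.0%. Of 3245 genes with either word, 26.4% were lower and 3.64% higher, and of the genes with neither, 6.41% were lower and 13.6% higher. These words were chosen on the same fold changes, so the shares are a description.

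LIN28B and IGF2BP1, the members past the threshold, were also the only members of the 9 with a 3′ UTR that held either word. That is 2 of 9, beside 28.2% of all tested genes with a 3′ UTR, so the members held no excess of these words. The fold changes on which the words were chosen include those of LIN28B and IGF2BP1. LIN28B held TGAATAA once and IGF2BP1 held both words in 1 run, at position 6181 of 6206. Their part in the fall of LIN28B and IGF2BP1 was not tested. The comparison of these 2 groups also cannot tell the loss of TRIM15 apart from other effects of the hairpin. The runs are shown with the words in capitals.
LIN28B, chr6:105081567-105081589, plus strand: aacacttgTGAATAAtgaagcat
IGF2BP1, chr17:49055617-49055640, plus strand: ttaccataATGAATAAacgtcctc

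Among the other members in the longest class, PEG10 has a 3′ UTR of 5161 bases and IGF2 one of 3875 bases, with neither word. In the longest class 57.0% of genes held a word. Of these 1643 genes 25.9% were lower, beside 7.67% of the 1238 without. With either word and a let-7 match, as in LIN28B and IGF2BP1, 24.8% of 710 genes in this class were lower, and with either word and no let-7 match 26.7% of 933 genes were lower.

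**Figure D4:**
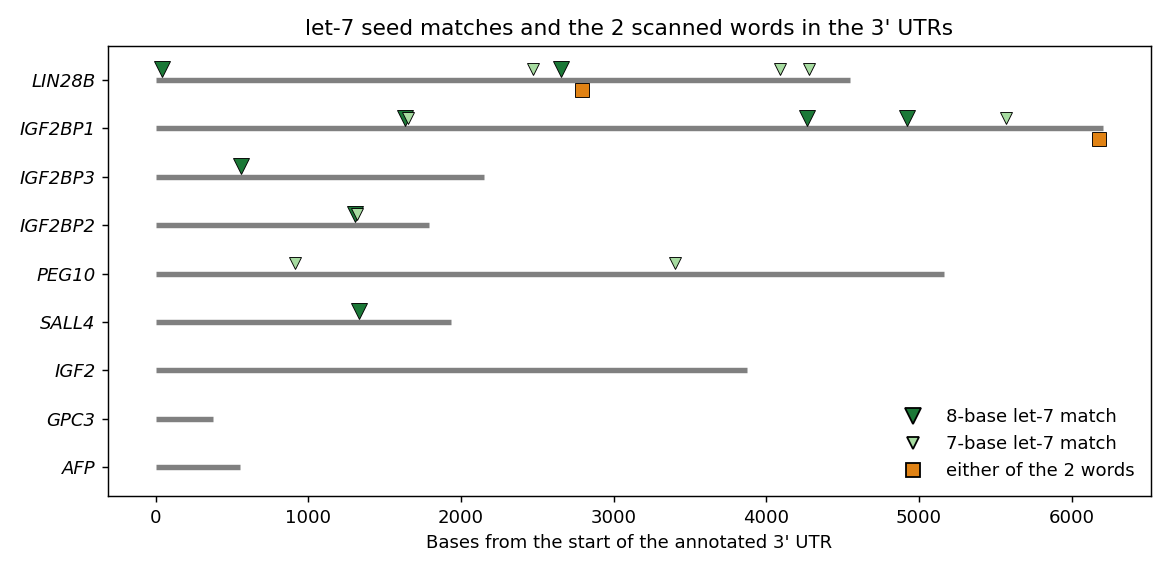
Annotated 3′ UTRs of 9 oncofetal genes to scale, in bases from the start of the 3′ UTR, with 8-base and 7-base let-7 seed matches above each line and the 2 words tied to lower values below it. LIN28B and IGF2BP1 hold 5 let-7 matches each and are the only lines with a square.

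**Figure D5:**
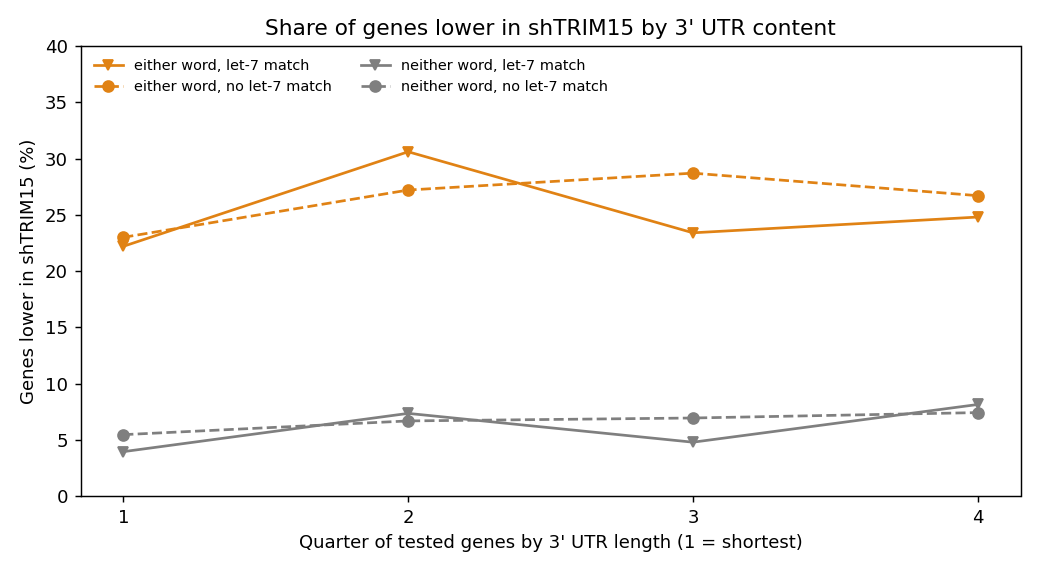
Percent of tested genes that were lower in shTRIM15, by 3′ UTR length class (1 is the shortest), split by the 2 words and by let-7 matches. In the longest class the share was 24.8 and 26.7% with either word and 8.15 and 7.43% with neither word, given with a let-7 match first and without one second, and the point for either word with a let-7 match in the shortest class holds 18 genes.

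Genes that act with the members were described from lists, beside the background of 10.1% lower and 8.93% higher by limma. Voom on whole reads called more genes higher and had a median log2 fold change of 0.023 over all genes. Its counts are therefore given as well, beside its own background of 12.3% lower and 15.9% higher. Around let-7 control, which holds the nuclease DIS3L2, the uridyl transferases and the Drosha and Dicer steps, 10 of 13 listed genes were tested, 1 was higher and 1, LIN28B itself, was lower (median -0.03). DIS3L2, which degrades let-7 precursors marked by LIN28, averaged 2.58 ± 0.0301 FPKM in shTRIM15 and 2.13 ± 0.0818 FPKM in shcontrol (SD, n = 3 each; log2 fold change 0.19, limma adjusted p = 0.0374). Its call was lost with any 1 of the 6 libraries left out (adjusted p up to 0.106), which leaves 0 higher. With voom 3 were higher and 1 lower. The uridyl transferases TUT4 (-0.03) and TUT7 (-0.10) and the let-7 target TRIM71 (-0.02) did not pass.

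Of 27 tested classical let-7 targets, 7 were lower and 2 higher by limma (median -0.04), while with voom 7 were lower and 6 higher. The list includes LIN28B, which let-7 itself represses, and the 3 IGF2BP genes. CCND1, the cyclin D1 gene, averaged 41.1 ± 0.558 FPKM in shTRIM15 and 60.9 ± 1.54 FPKM in shcontrol (SD, n = 3 each; log2 fold change -0.56, limma adjusted p = 0.000127). The GTPase gene NRAS fell to 30.5 ± 1.22 FPKM in shTRIM15, against 39.1 ± 0.423 FPKM in shcontrol (-0.35), and the zinc finger gene PLAGL2 to 26.6 ± 0.463 FPKM against 33.4 ± 0.989 FPKM in shcontrol (-0.32). MYC rose to 20.7 ± 1.18 FPKM in shTRIM15, against 17 ± 0.481 FPKM in shcontrol (0.27). HMGA2 (0.11) and HMGA1 (0.02) did not pass. Of the 7 lower genes, 5 held either of the 2 words in the 3′ UTR, of 12 tested list genes that hold one, and their part was not tested. With 1 library left out, 6 or 7 were lower and 1 or 2 higher, with 1 higher without shTRIM15 replicate 1 or 2 or shcontrol replicate 2.

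Around IGF2, 10 of 17 receptors and binding proteins were tested, 3 were higher and 0 lower by limma (median 0.06). At an unadjusted p under 0.05, 4 were higher and 2 lower, where all genes gave 16.4% and 16.3%. With voom 4 were likewise higher and 2 lower. IGF2R, the receptor that clears IGF2, rose to 21.5 ± 0.448 FPKM in shTRIM15, against 17.2 ± 0.429 FPKM in shcontrol (SD, n = 3 each; log2 fold change 0.30, adjusted p = 0.0011). STC2, an inhibitor of the protease that frees IGFs, rose to 6.2 ± 0.193 FPKM in shTRIM15, against 4.6 ± 0.143 FPKM in shcontrol (0.36). IGF1R (0.10), INSR (-0.02) and IRS1 (0.015), which carry the signal, did not pass. The third call, IGFBP3 at 0.08, was lost with any 1 library left out (adjusted p up to 0.118), which leaves 2 higher.

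For the partners and client mRNAs of the IGF2BP proteins, limma called 4 of 20 tested higher and 4 lower (median 0.0075), and with voom 6 were higher and 4 lower. The median was -0.00072 without shTRIM15 replicate 2, -0.0158 without shcontrol replicate 1 and 0.0186 without shcontrol replicate 3. MYC, a client mRNA given above among the let-7 targets, was 1 of the higher genes (log2 fold change 0.27, limma adjusted p = 0.00792). The binding partners YBX1 (0.04), HNRNPU (0.0045), SYNCRIP (-0.03) and DHX9 (-0.06) did not pass. The number lower was 1 without shTRIM15 replicate 1 or 3 or shcontrol replicate 2, and 2 without shTRIM15 replicate 2 or shcontrol replicate 3. With 1 library left out, 2 or 3 were higher, and the number was 2 without shTRIM15 replicate 1, 2 or 3 or shcontrol replicate 3.

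Among the AFP locus and its regulators, limma called 4 of 15 tested lower and 1 higher (median -0.05), while with voom 4 were lower and 5 higher. ALB, the albumin gene beside AFP, had a log2 fold change of 0.05, as AFP did, and did not pass. CEBPA, a liver transcription factor, fell to 55.6 ± 0.7 FPKM in shTRIM15, against 71.4 ± 3.94 FPKM in shcontrol (SD, n = 3 each; -0.35, limma adjusted p = 0.00171), with ONECUT1 at -0.23 and NR5A2 at -0.18. ZHX2, known in mouse liver as a repressor of AFP, GPC3 and H19 after birth, averaged 7.89 ± 0.0854 FPKM in shTRIM15 and 6.46 ± 0.617 FPKM in shcontrol (0.26, adjusted p = 0.0299). The ZHX2 call was lost without shTRIM15 replicate 1, 2 or 3 or shcontrol replicate 1 (adjusted p up to 0.0861), which leaves 0 higher. With 1 library left out, 3 or 4 were lower.

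Of 14 tested glypicans and heparan sulfate genes, 2 were higher and 3 lower by limma (median 0.004), and with voom 3 were higher and 2 lower. The glypican gene GPC1 fell to 2.61 ± 0.046 FPKM in shTRIM15, against 3.39 ± 0.045 FPKM in shcontrol (SD, n = 3 each; log2 fold change -0.28, limma adjusted p = 0.00591), while GPC2 (-0.02) and GPC4 (-0.04) did not pass. With 1 library left out, 1 or 2 were lower and 0 to 2 higher. Without shTRIM15 replicate 3 there were 0 higher and 1 lower. The number higher was 1 without shTRIM15 replicate 2 or shcontrol replicate 1 or 2.

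Of 21 tested genes of the SALL family, the NuRD complex that SALL4 recruits and pluripotency, 2 were higher and 3 lower by limma (median 0.02), while with voom 6 were higher and 4 lower. HDAC1, a deacetylase of NuRD, rose to 75.6 ± 2.23 FPKM in shTRIM15, against 64.5 ± 1.58 FPKM in shcontrol (SD, n = 3 each; 0.23, limma adjusted p = 0.00314). RBBP4, a histone chaperone of the same complex, fell (-0.19, adjusted p = 0.00368). SALL1 (0.0048) and SALL2 (0.09) did not pass, and POU5F1, SOX2 and NANOG were below the filter. The number higher was 1 without shTRIM15 replicate 1 or 2 or shcontrol replicate 2. With 1 library left out, 2 to 4 were lower.

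Of 14 tested imprinted genes, 2 were higher and 4 lower by limma (median -0.06), and with voom 2 were higher and 3 lower. The median was -0.0941 without shTRIM15 replicate 2, -0.0992 with a pseudocount of 0.1 and -0.0912 with voom. Of 26 listed names, 8 had a row at 0 in all libraries. GRB10, an adaptor of insulin receptors, rose to 13.4 ± 0.185 FPKM in shTRIM15, against 10.6 ± 0.184 FPKM in shcontrol (SD, n = 3 each; log2 fold change 0.32, limma adjusted p = 0.000836). MEST fell to 30.8 ± 2.14 FPKM in shTRIM15, against 37.1 ± 0.843 FPKM in shcontrol (-0.26), and ZDBF2 fell as well (-0.31). With 1 library left out, 2 or 3 were lower, and the number was 2 without shTRIM15 replicate 2 or 3. The call of CDKN1C (0.949 FPKM in shTRIM15 and 1.33 FPKM in shcontrol, log2 fold change -0.26) was lost with any 1 of the 6 libraries left out (adjusted p up to 0.126).

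Of 15 tested fetal liver and progenitor markers, 2 were higher and 3 lower by limma (median 0.01), while with voom 5 were higher and 3 lower. SPINK1, a secreted trypsin inhibitor, fell to 93.5 ± 1.68 FPKM in shTRIM15, against 137 ± 8.44 FPKM in shcontrol (SD, n = 3 each; log2 fold change -0.54, limma adjusted p = 0.000537). CD24 (-0.13) and PROX1 (-0.18) fell, and SOX9, a factor of biliary progenitors, rose (0.22). MDK (0.04), KRT19 (-0.03) and TERT (0.07) did not pass. DLK1, a marker of hepatoblasts, had 0 reads in every library. The number higher was 1 without shTRIM15 replicate 1 or 2 or without shcontrol replicate 1, 2 or 3.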

How the data were processed

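RNA sequencing libraries of Huh7 cells were made with mRNA enrichment and a directional kit, per the labels' protocols. The authors deposited FPKM values, 1 column per library, and a gene length in bases. The submitters' processing notes list build mm10, a mouse build, but all 58735 row identifiers are in human GENCODE 29, 58690 with the same start, end and strand on GRCh38, and 0 have the mouse form. The aligner and counter are not given in the sources used here. Multiplying FPKM by gene length and dividing by the worth of 1 read in that library gave whole reads for 100% of values (tolerance 0.01 reads).

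Rows that reached 0.5 FPKM in 3 of the 6 libraries were tested with limma 3.58.1 in R 4.3.3 on log2(FPKM + 1), with a variance trend, two-sided and Benjamini-Hochberg adjusted over all rows tested. The procedure was tested on simulated data. Alternatives were other pseudocounts, filters, scalings, no trend, limma voom on whole reads, replicate number as a block, and each library left out. Named genes were the members, genes overlapping them, the closest genes to LIN28B and the largest called changes per list. Some genes taken by this rule are not reported here, and genes beyond it were named after their values were seen. Members and lists were chosen with earlier results of these data known. The ranking of 3′ UTR words and the splits by them were chosen after the data were seen.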

Additional observations from a re-analysis of the deposited data

How the results depend on the processing

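LIN28B, IGF2BP1 and TRIM15 kept their direction and stayed past the threshold in all 15 alternatives, with log2 fold changes of -0.32 to -0.29 for LIN28B and -0.19 to -0.15 for IGF2BP1. AFP passed under quantile scaling (0.0816) and with voom on whole reads (0.0754), and SALL4 passed without a variance trend (0.20) and with voom (0.36). The number of members higher was then 1 with quantile scaling, 1 with no variance trend and 2 with voom, in place of 0 by limma. IGF2BP2 had the opposite sign with voom (0.0218), and with 1 library left out it ranged from -0.0319 to 0.031, PEG10 from -0.000868 to 0.0332 and SGCE from -0.00772 to 0.0488. None of these sign changes of IGF2BP2, PEG10 and SGCE passed the threshold, and the cause was not tested. With voom the median log2 fold change over all genes was 0.023, against 0.0014 in the main fit. Voom took the sum of reads as library size. The size implied by FPKM differed from that sum by 1.04 to 1.27% in the shTRIM15 libraries and by -0.37 to -0.359% in the shcontrol libraries. Of all genes, 2824 passed (1326 higher, 1498 lower). With voom 2360 were higher, and 4186 passed in all. With 1 library left out, 1770 to 2339 passed, 792 to 1115 were higher and 978 to 1224 were lower. The fit with no filter called 1888 genes.

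Same-numbered libraries deviated together with r of 0.00862 to 0.0133 across genes, and libraries of different number with r of -0.0142 to 0.0018. All these values are small, and they cannot settle whether replicate numbers pair the libraries. With replicate number as a block, 883 genes were higher and 1913 passed, and LIN28B (adjusted p = 0.0123) and IGF2BP1 (0.0261) stayed past the threshold. Of 49 list and neighbour genes past the threshold, 26 stayed past it in all alternatives. Counting error limits SALL4, IGF2 and H19, and intervals for reads cover counting error only.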
